A study of Mus musculus with 39 samples.

Results

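The replication-dependent histone genes are the mouse genes with a symbol from Hist1h to Hist4h. They were chosen by symbol: every row starting this way, other than those marked as pseudogenes by -ps, with a TPM above 0 in at least 1 library. This gave 61 of the 28023 gene rows, all 61 above 0 in the sorted CD8+ T cell libraries and 57 in the bulk tumour libraries. TPM is a transcript level corrected for transcript length and for the total of the library. By symbol, 49 of the 61 belong to the Hist1 cluster, 9 to the Hist2 cluster, 2 to the Hist3 cluster and 1, Hist4h4, to Hist4. By the annotation these lie on chromosomes 13, 3, 11 and 6 in this order. Hist1h2al, counted under Hist1, lies at chr13:51202727-51203065, apart from the other Hist1 members. The 61 members hold 6 H1 genes, 20 H2A genes, 15 H2B genes, 7 H3 genes and 13 H4 genes. Of the H2A genes, 2 (Hist1h2aj and Hist1h2al) are annotated as pseudogenes.

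Core histones (H2A, H2B, H3 and H4) form the protein spool of the nucleosome, and linker histone H1 binds where DNA enters and leaves it. Most of these genes are transcribed in S phase, when newly copied DNA has to be packed. Their mRNAs usually end not in a poly(A) tail but just after a short stem-loop, which SLBP binds and which is needed for 3′ processing, export and translation. Some of them also give polyadenylated transcripts, which are known from differentiated cells. Mki67 encodes Ki-67, a nuclear protein of cycling cells, and is used here as the proliferation measure set beside them.

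The study asked how an adsorbent taken with an antibiotic bears on anti-PD-1 treatment. Wild-type C57Bl6 mice received a fecal microbiota transplant (FMT). The stool came from volunteers and had seen 6 days of CZA+DAV132 or of CZA alone. DAV132 is a colon-targeted adsorbent, and CZA, an antibiotic treatment by the study's title, is not spelled out in the labels. After 2 weeks the mice were given MCA-205 cells, a mouse fibrosarcoma line, under the skin. At a tumour size of 25 to 35 mm2 they had 4 antibody injections at intervals of 3 days, each with 250 µg of anti-PD-1 (RMP1-14) or of an isotype control (2A3). Tumours were collected 2 days after the last injection. The bulk tumour experiment had 5 libraries of CZA+DAV132 mice on anti-PD-1, 4 of CZA+DAV132 mice on isotype, 5 of CZA mice on anti-PD-1 and 5 of CZA mice on isotype. A repeat of the experiment with the same FMT samples gave CD8+ T cells sorted from tumours, with 5 libraries in each of the same 4 groups. All mice shared the FMT, the MCA-205 tumour and the antibody injections, so no group lacked CZA.

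TPM keeps no read depth, so depth and counting error are unknown. The labels do not tie libraries to animals or say how many stools were used, so the p-values rest on the spread between libraries only, which may be technical. In the sorted libraries the T cell genes (9 genes such as Cd3e and Cd8a) summed to 3617 to 16664 TPM and the fibroblast and fibrosarcoma genes (8 genes such as Col1a1) to 5.90 to 338 TPM. In the libraries labelled bulk tumour the same sums were 4016 to 13856 TPM and 6.61 to 1382 TPM, so T cell RNA was abundant there too. Satellite and simple repeat entries took 72.1% of the TPM of library CD8-19, 29.1% of CD8-16 and 51.1% of bulk library T-026, all 3 from CZA+DAV132 mice on anti-PD-1. The highest share elsewhere was 25.7%, in CD8-1. Since TPM sums to a constant, such entries lower every other value of their library. For the pairwise comparisons that hold these 3 libraries, the histone calls and medians in TPM are given also without them. Calls of marker genes and of the interaction of DAV132 and anti-PD-1 are given with these libraries included. In bulk RNA, fewer cells of a type and less RNA per cell cannot be told apart.

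The stem-loop shows in the annotated transcripts as a short inverted repeat around a run of T, which a C interrupts in 1 member, Hist1h4a. It was found in 41 of the 61 members, as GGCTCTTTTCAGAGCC in 23 members of the H1, H2A, H2B and H3 classes and as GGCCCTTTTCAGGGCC in 7 H4 members. The sequences below are shown because they mark where the non-polyadenylated mRNA ends. They are in GRCm38, with the stem-loop in capitals, and each belongs to a gene whose values are given further on.
Hist1h1e, chr13:23621777-23621802, minus strand: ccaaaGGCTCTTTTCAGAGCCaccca
Hist1h2ao, chr13:21810893-21810918, plus strand: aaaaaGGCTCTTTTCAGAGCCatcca
Hist1h3a, chr13:23761885-23761910, minus strand: ccaaaGGCTCTTTTCAGAGCCacaca
Hist3h2a, chr11:58955167-58955192, plus strand: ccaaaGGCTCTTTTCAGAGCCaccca
Hist1h4d, chr13:23581945-23581970, plus strand: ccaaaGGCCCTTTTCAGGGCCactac
Hist4h4, chr6:136803993-136804018, minus strand: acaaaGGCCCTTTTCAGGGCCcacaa
The H1, H2A and H3 genes share the whole 16-base stem-loop, and the H4 genes differ from them within the stem. What follows the loop differs more. The annotated transcript ended 31 bases after the loop in Hist1h2ao and 37 bases after it in Hist1h3a. It ran on for 770 bases in Hist1h4d, 1153 in Hist1h1e, 1643 in Hist3h2a and 2445 in Hist4h4. Of the 41 members with the loop, 21 ended within 100 bases of it and 20 ran on for 100 bases or more. The annotated transcript of Hist1h2bc did not hold these letters.

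An H2A pair carried most of the signal in the sorted cells. In the sorted CD8+ T cells Hist1h2ap averaged 990 ± 275 TPM and Hist1h2ao 356 ± 136 TPM (SD, n = 20), and together they made up 65.2% to 73.8% of the histone TPM of each library. In the bulk tumour libraries Hist1h2ao averaged 219 ± 104 TPM (SD, n = 19), while Hist1h2ap was listed at 0 in 16 of 19 libraries, and the pair made up 33.3% to 67.4% of the histone TPM. Their annotated transcripts, of 480 and 482 bases, share 452 identical bases: Hist1h2ao has 28 bases more at the 3′ end and Hist1h2ap 30 more at the 5′ end. How kallisto shares reads between such a pair can set either value, so the value of either alone is uncertain. In front of the stem-loop both carry the same run of A, shown in capitals for them and for another H2A gene, Hist2h2aa2, whose run is shorter.
Hist1h2ao, chr13:21810884-21810913, plus strand: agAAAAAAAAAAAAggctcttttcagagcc
Hist1h2ap, chr13:21833029-21833058, minus strand: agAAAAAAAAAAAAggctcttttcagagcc
Hist2h2aa2, chr3:96239784-96239813, minus strand: cgagctcctAAAAAggctcttttcagagcc
A run of 10 or more A was found in the transcripts of 4 members (6.56%), against 16.9% of 27787 genes. Of the 61 members, 33 had more than 50% of their 31-base words in common with other genes, so levels of single members are uncertain within such groups.

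The other classes were far lower than the H2A pair. Among the linker genes, Hist1h1e averaged 43.1 ± 19.0 TPM, Hist1h1b 34.7 ± 12.2 TPM and Hist1h1c 22.1 ± 5.56 TPM in the sorted cells (SD, n = 20). The same 3 genes led the H1 class in the bulk tumour libraries, with 28.7 ± 29.4, 25.4 ± 16.3 and 13.3 ± 9.38 TPM (SD, n = 19). In each set Hist1h1e and Hist1h1b differed by less than 1 SD of either. After the H2A pair came Hist1h2ag, with 37.9 ± 16.1 TPM in the sorted cells and 5.10 TPM in the bulk libraries, where Hist1h2ae averaged 4.96 TPM. Of the H2B genes, Hist1h2bc averaged 35.7 ± 15.5 TPM, Hist1h2bj 29.99 ± 10.4 TPM and Hist1h2bk 12.8 ± 6.78 TPM in the sorted cells, and in the bulk libraries Hist1h2bc led with 15.4 ± 14.5 TPM, before Hist1h2bj with 5.13 and Hist2h2be with 2.59 TPM. H3 was the lowest class: Hist2h3b averaged 15.8 ± 5.77 TPM, Hist1h3a 8.35 ± 3.63 TPM and Hist1h3c 6.27 ± 2.66 TPM in the sorted cells. Hist1h3a and Hist1h3e each averaged 1.83 TPM in the bulk libraries, before Hist1h3c with 1.54 TPM. Of the H4 genes, Hist1h4d averaged 75.7 ± 27.6 TPM in the sorted cells, ahead of Hist1h4n with 33.0 ± 14.0 TPM and Hist1h4c with 30.2 ± 9.58 TPM, whereas in the bulk libraries Hist4h4 led with 15.4 ± 13.9 TPM, before Hist1h4d with 10.1 ± 7.26 TPM and Hist1h4i with 8.59 ± 7.29 TPM.

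**Figure D1:**
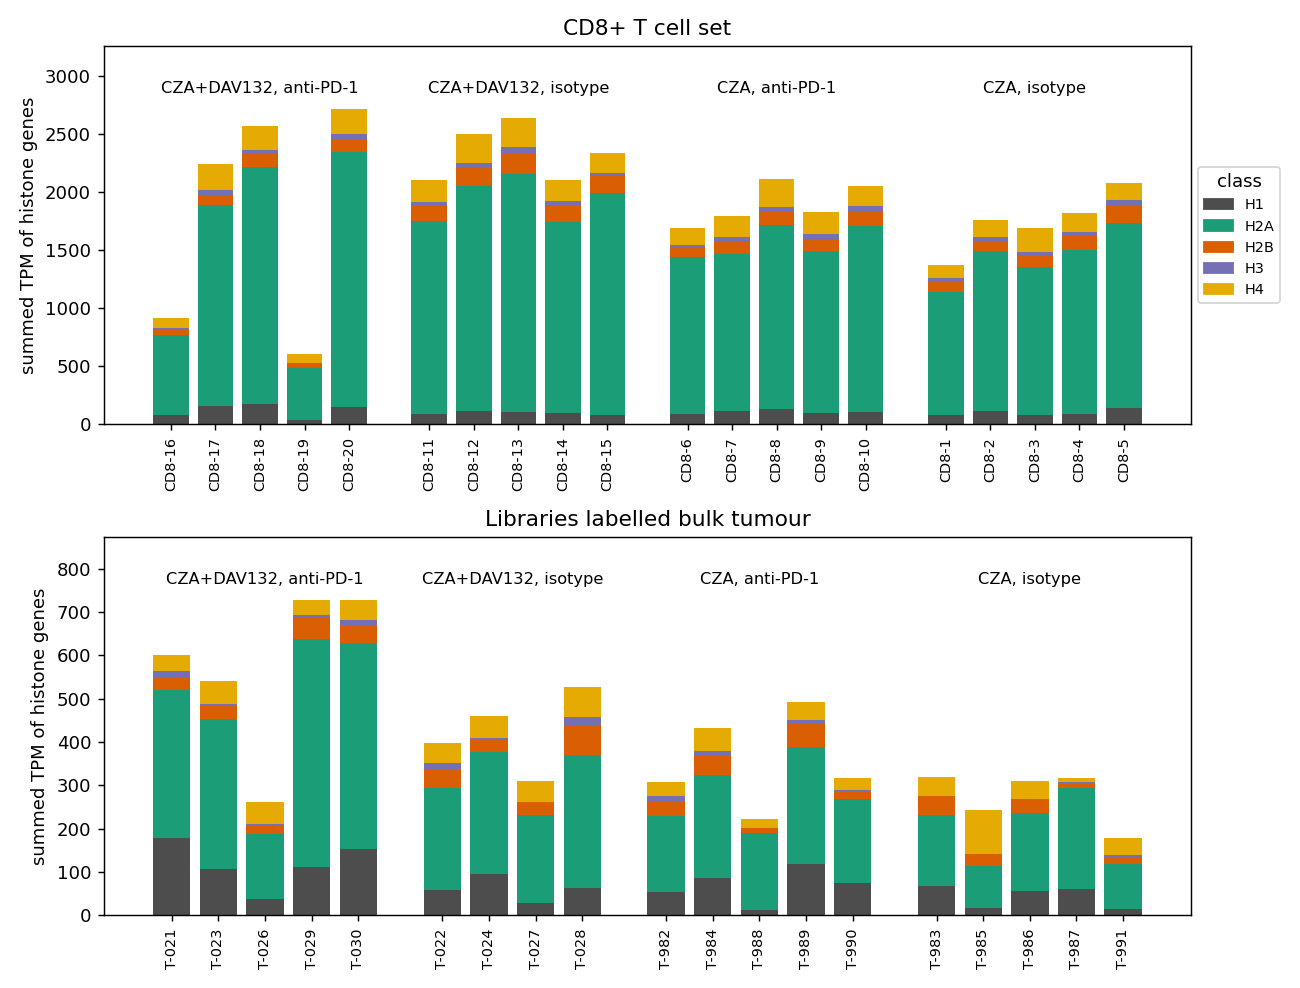
Summed TPM of the histone genes in each library (vertical, linear axis), stacked by class, with the sorted CD8+ T cell set above and the bulk tumour set below and the 4 groups side by side. H2A is the largest class in all 20 sorted libraries, and CD8-16 and CD8-19 have the lowest bars there, at 913 and 604 TPM.

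Summed over members, the class means in the sorted cells were 1515 TPM for H2A, 177 for H4, 110 for H2B, 105 for H1 and 36.9 for H3, as the plot of class sums shows. In the bulk tumour libraries H2A summed to 247 TPM, H1 to 73.5, H4 to 44.7, H2B to 33.3 and H3 to 6.28 TPM. The tables may have been normalised separately, so the sets are compared as a description only. The mean was higher in the sorted cells for 53 members and in the bulk tumour libraries for 8. The 8 were mostly genes with long annotated transcripts: 7 of the 15 members with 1000 bases or more (Hist1h1d, Hist1h2ac, Hist1h2be, Hist1h2bq, Hist1h2br, Hist2h2be and Hist4h4) but 1 of the 46 shorter ones (Hist2h2aa1). For Hist1h2bq, Hist1h2br and Hist2h2be the medians went the other way, at 0.14, 0 and 0.58 TPM in the bulk libraries. They were 0.32, 0.44 and 0.82 TPM in the sorted cells. Single bulk libraries raised these means, T-983 with 16.6 and 22.5 TPM of Hist1h2bq and Hist1h2br, and T-986 with 28.6 TPM of Hist2h2be. Hist2h2aa1 was listed at 0 in 17 of 20 sorted and 17 of 19 bulk libraries, with means of 0.33 and 0.48 TPM. It shares 89.6% of its 31-base words with other genes, so its place among the 8 is uncertain. Among the members with a stem-loop, 1 of the 21 whose transcript ends within 100 bases of it (again Hist2h2aa1) was higher in the bulk libraries, and 4 of the 20 that run on.

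**Figure D2:**
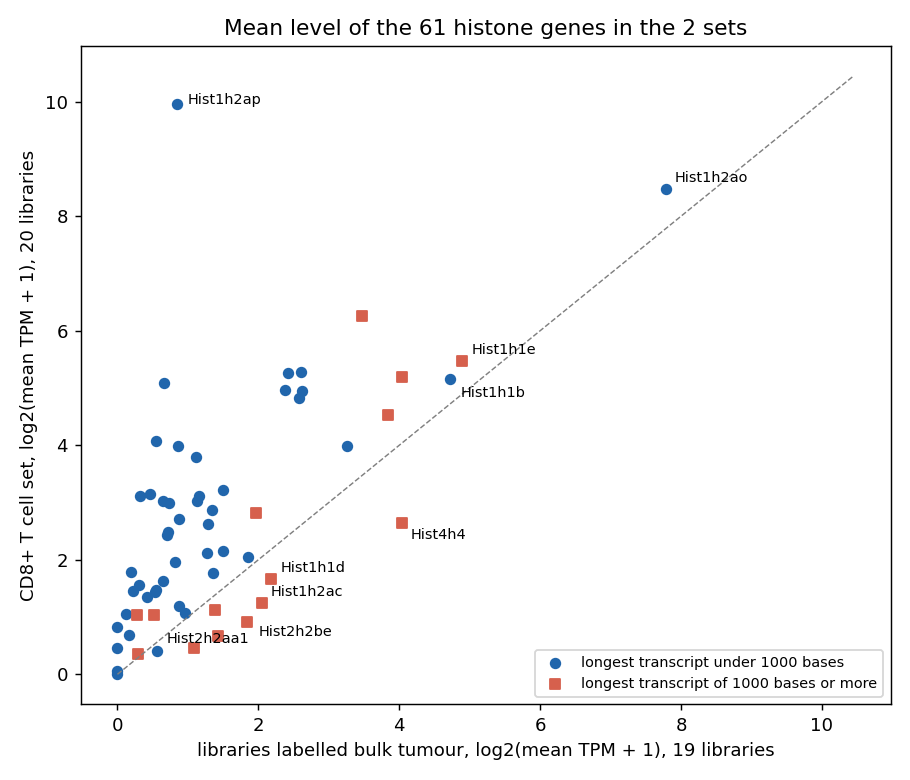
Level of each member as log2(mean TPM + 1) in the sorted CD8+ set (vertical, 20 libraries) against the bulk tumour set (horizontal, 19 libraries), with squares for annotated transcripts of 1000 bases or more, circles for shorter ones and a dashed line of equal level. Below the line, with a higher mean in the bulk set, lie 7 of the 15 members with long transcripts and 1 of the 46 shorter ones. By the median, Hist1h2bq, Hist1h2br and Hist2h2be among them were lower in the bulk set, and the shorter one, Hist2h2aa1, was listed at 0 in most libraries of both sets.

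The histone sum over all members varied most in 1 group of the sorted cells. In CZA+DAV132 mice on anti-PD-1 it was 604 TPM in CD8-19 and 913 TPM in CD8-16, but 2238 to 2712 TPM in the other 3 libraries. It was 2102 to 2633 TPM in CZA+DAV132 mice on isotype, 1686 to 2109 TPM in CZA mice on anti-PD-1 and 1371 to 2078 TPM in CZA mice on isotype. So the anti-PD-1 libraries of the CZA+DAV132 arm held both the lowest and the highest values, and the 2 lowest were the 2 richest in repeats. Under isotype, CZA+DAV132 libraries lay above all CZA libraries. With repeat entries left out of the total, the ranges were 1288 to 3081, 2163 to 2701, 1752 to 2473 and 1720 to 2085 TPM in the same order of groups, and the CZA+DAV132 and CZA libraries under isotype again did not overlap.

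In the bulk tumour libraries the sum was highest in CZA+DAV132 mice on anti-PD-1, with 262 TPM in the repeat-rich T-026 and 541 to 727 TPM in the other 4. It was 311 to 528 TPM in CZA+DAV132 mice on isotype, 223 to 493 TPM in CZA mice on anti-PD-1 and 179 to 320 TPM in CZA mice on isotype. Without repeat entries in the total the lowest CZA+DAV132 library on anti-PD-1 had 535 TPM, against a highest value of 530 TPM on isotype in the same arm and of 495 TPM in CZA mice on anti-PD-1. The macrophage and monocyte genes summed to 314 to 691 TPM in CZA+DAV132 mice on anti-PD-1, against 799 to 1323 TPM in CZA+DAV132 mice on isotype, 754 to 1198 TPM in CZA mice on anti-PD-1 and 726 to 1818 TPM in CZA mice on isotype. The endothelial genes summed to 1756 to 5830 TPM in CZA+DAV132 mice on anti-PD-1, against 814 to 1429 TPM in CZA+DAV132 mice on isotype and 563 to 3217 TPM over both groups of CZA mice. Their part in the histone sums was not tested. The histone sums are a description of the members together and were not tested.

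Set beside Mki67, the bulk libraries of CZA+DAV132 mice on anti-PD-1 lay above those of CZA+DAV132 mice on isotype and of CZA mice on anti-PD-1. They overlapped with those of CZA mice on isotype. The histone sum was 20.0 to 26.8 times the Mki67 TPM in CZA+DAV132 mice on anti-PD-1, 8.98 to 18.6 times in CZA+DAV132 mice on isotype and 7.78 to 13.8 times in CZA mice on anti-PD-1. In CZA mice on isotype it was 4.93 to 25.97 times, with T-987 highest and the others at 11.8 or below. In the sorted cells the ratios were 81.6 to 205, 161 to 206, 128 to 198 and 118 to 190 in the same order of groups, and all 4 groups overlapped.

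**Figure D3:**
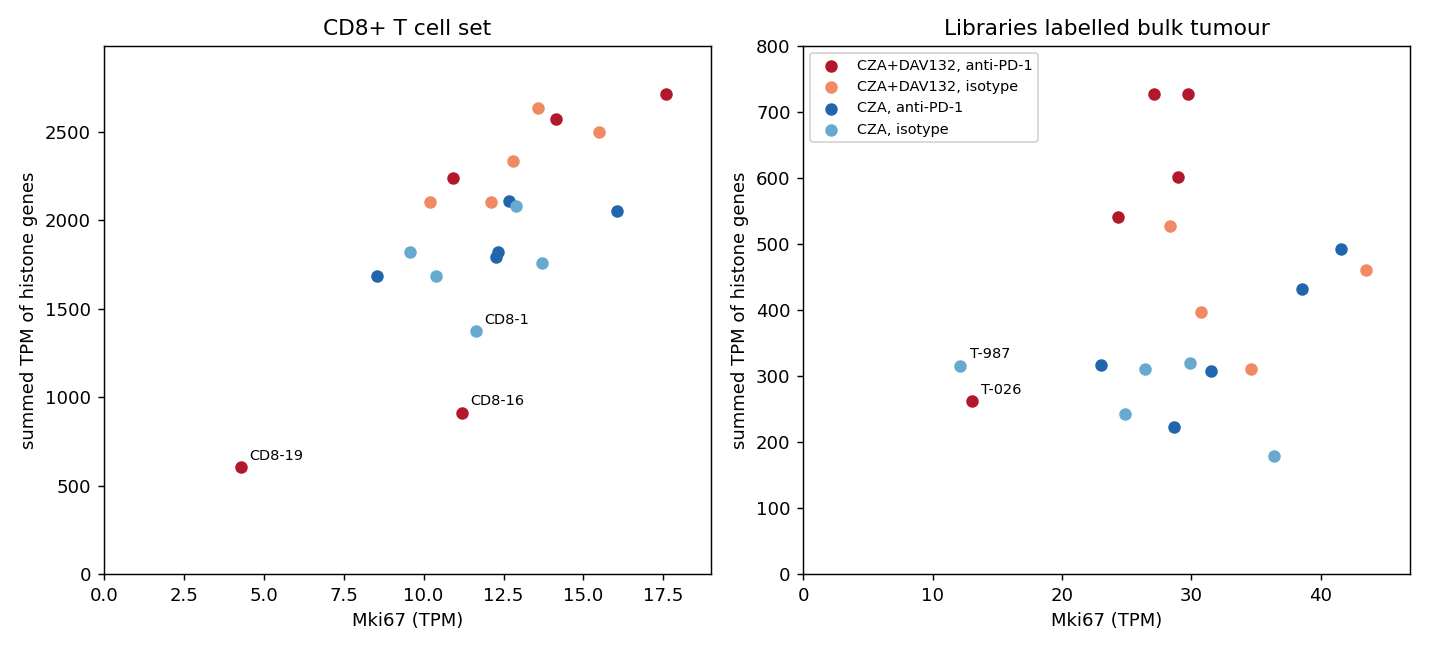
Histone sum in TPM (vertical) against Mki67 in TPM (horizontal); each point is a library, coloured by group, with the sorted set on the left and the bulk set on the right. CD8-19 is lowest on both axes in the sorted set, and the bulk libraries of CZA+DAV132 mice on anti-PD-1 hold 20.0 to 26.8 times their Mki67 level. T-987 of CZA mice on isotype lies in the same range, at 25.97 times.

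For tests of single genes, limma was fitted to log2(TPM + 1) over the genes that reached 1 TPM in 4 or more libraries of the set, and a gene was called at a Benjamini-Hochberg adjusted p under 0.05 over all of them. This tested 54 members among 12942 genes in the sorted cells and 38 among 13326 in the bulk libraries. The untested members were 7 and 19, and their levels enter the sums only. Differences are in log2(TPM + 1), which understates changes of low genes. The 4 comparisons of a set share groups with one another, so their values are given side by side only. Counts of members at an unadjusted p under 0.05 are given without the share of all genes, so they show nothing particular to the members. In the bulk libraries some of these counts include Hist1h2aj or Hist1h2bp, which were tested only through the group where they are high. Relative to Mki67 every gene of a library has the same value subtracted, so counts above or below 0 are not independent.

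Anti-PD-1 against isotype in the CZA+DAV132 arm was the only comparison with called histone genes. In the sorted cells 6 of 54 members were called, 1 higher and 5 lower, where 23.5% of all tested genes were called, 4.12% higher and 19.4% lower. The members' share, of 6 in 54, is thus below the background. At an unadjusted p under 0.05 there were 1 higher and 14 lower. The median difference of the 54 was -0.49, against -0.34 over all genes, and 10 lay above 0 and 44 below. The count was 2 without CD8-16, 11 without CD8-18 and 3 without CD8-13, CD8-14 or CD8-15 of the isotype group. Without both repeat-rich libraries 1 member was higher and 1 lower, where 4.14% of all genes were higher and 5.07% lower, and the median of the members was 0.05, against -0.01 over all genes. Median-ratio scaling gave 2 higher and 3 lower, where 11.4% of all genes were higher and 14.1% lower, with medians of -0.09 for the members and 0.00 for all genes. By class, 0 of 5 H1 genes were called, 3 of 19 H2A genes, 1 of 13 H2B genes and 1 of 6 H3 genes were lower, and 1 of 11 H4 genes was higher.

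Hist1h2bc, an H2B gene of the Hist1 cluster (ENSMUSG00000018102.5, chr13:23684199-23692908, plus strand), was the member with the smallest p. It had 17.7, 22.2, 23.5, 8.92 and 20.7 TPM in CZA+DAV132 mice on anti-PD-1, against 71.8, 44.4, 54.8, 52.3 and 39.4 TPM in CZA+DAV132 mice on isotype. All anti-PD-1 libraries of this arm lay below all isotype libraries. Its log2 difference was -1.49 ± 0.28 (SE, limma adjusted p = 0.00589), and it passed under 19 of 19 alternatives, with differences from -1.58 to -0.97 and adjusted p-values from 0.0016 to 0.0194. In the CZA arm it had 23.5, 39.1, 32.8, 36.0 and 37.1 TPM on anti-PD-1, against 33.7, 19.7, 34.1, 49.8 and 52.6 TPM on isotype, and these groups overlapped.

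Hist3h2a, an H2A gene of the small Hist3 cluster (ENSMUSG00000078851.4, chr11:58954685-58956830, plus strand), had 1.19, 3.11, 4.47, 1.49 and 5.42 TPM on anti-PD-1 in the CZA+DAV132 arm, against 8.24, 5.51, 10.8, 6.22 and 8.08 TPM on isotype. The groups did not overlap, though the highest anti-PD-1 library and the lowest isotype library were close. The gene fell by 1.18 ± 0.27 (log2, SE, limma adjusted p = 0.00855), and without CD8-16 and CD8-19 the difference was -0.71 with an adjusted p of 0.0527. Its neighbour Hist3h2ba, the other gene of that cluster, averaged 2.28 ± 1.11 TPM on anti-PD-1 and 4.16 ± 1.81 TPM on isotype (SD, n = 5 each) and was not called.

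The other 3 members that fell rested on fewer settings. Hist2h2aa2, an H2A gene whose A run is shown above, had 20.6, 27.9, 41.5, 7.03 and 35.7 TPM on anti-PD-1 against 43.0, 42.7, 54.2, 54.8 and 47.1 TPM on isotype, with no overlap, and fell by 1.04 ± 0.33 (log2, SE, limma adjusted p = 0.0268). Hist1h3a, an H3 gene, averaged 5.22 ± 3.12 TPM on anti-PD-1 and 10.8 ± 3.89 TPM on isotype (SD, n = 5 each) and fell by 0.98 (limma adjusted p = 0.0262), but the groups overlapped. Hist1h2ag had 9.16, 42.2, 56.5, 12.3 and 44.6 TPM on anti-PD-1 against 52.1, 63.7, 72.9, 45.5 and 49.9 TPM on isotype, and its difference of -1.06 (limma adjusted p = 0.0386) was -0.24 without the 2 repeat-rich libraries. They passed under 13, 9 and 7 of 19 alternatives in the order named here, and none of the 3 passed without the repeat-rich libraries. Of their 31-base words 100%, 56.0% and 79.8% are shared with other genes in the same order, so the level of each alone is uncertain.

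Hist4h4, the only member with a Hist4 symbol (ENSMUSG00000096010.2, chr6:136801553-136804415, minus strand), was the member that rose. It had 11.0, 5.19, 8.17, 16.4 and 3.91 TPM on anti-PD-1 in the CZA+DAV132 arm, against 2.25, 3.96, 3.92, 2.76 and 1.17 TPM on isotype. The highest values were those of the repeat-rich libraries, CD8-19 with 16.4 and CD8-16 with 11.0 TPM, and the lowest anti-PD-1 library lay within the isotype range. The difference was 1.30 ± 0.43 (log2, SE, limma adjusted p = 0.0351), and it was 0.84 with an adjusted p of 0.261 without those libraries. The gene also reached 18.6 TPM in 1 library of CZA mice on isotype, CD8-4, where the other 4 had 1.17 to 5.60 TPM.

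**Figure D4:**
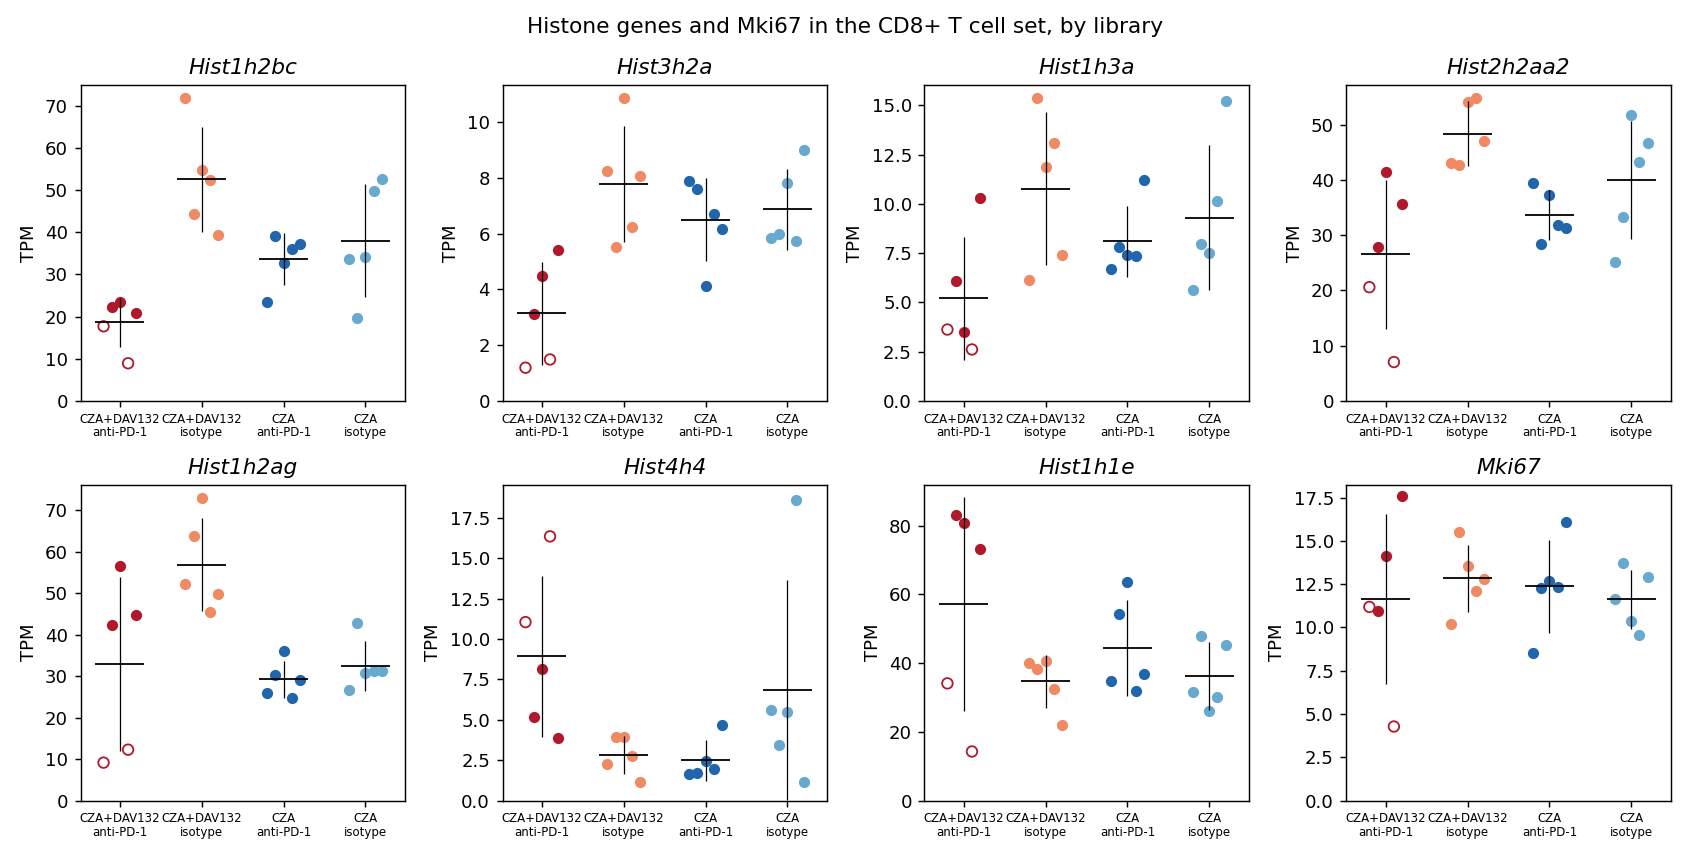
TPM of the 6 called members, Hist1h1e and Mki67 in the sorted CD8+ libraries (linear axis per gene), with the 4 groups side by side, open circles for the repeat-rich libraries CD8-16 and CD8-19, horizontal lines for means and vertical bars for SD. For Hist1h2bc, Hist3h2a and Hist2h2aa2 every anti-PD-1 library of the CZA+DAV132 arm lies below every isotype library of that arm.

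Of the 54 members, 3 (Hist1h2bc, Hist2h2aa2 and Hist3h2a) had all 5 anti-PD-1 libraries below all 5 isotype libraries in the CZA+DAV132 arm. This is 5.56% of the members, against 12.1% of all tested genes. For 0 members were all 5 above, against 2.85% of all genes.

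The call for the linker gene Hist1h1e depended on the repeat-rich libraries. It had 34.1, 83.1, 80.8, 14.3 and 73.4 TPM in CZA+DAV132 mice on anti-PD-1, against 40.0, 38.2, 40.6, 32.6 and 22.1 TPM in CZA+DAV132 mice on isotype. The 3 libraries other than CD8-16 and CD8-19 were above all isotype libraries and those 2 were not. The difference was 0.48 ± 0.37 (log2, SE, limma adjusted p = 0.368) and was not called. It was 1.20 without CD8-16 and CD8-19 (limma adjusted p = 0.0177), 0.94 with median-ratio scaling (adjusted p = 0.0115) and 1.01 with repeat entries left out of the total (adjusted p = 0.0145), and it passed in 5 of 19 alternatives, whose adjusted p ranged from 0.00226 to 0.621. In the same arm the H1 class held 5.58% to 8.74% of the histone TPM on anti-PD-1 and 3.36% to 4.60% on isotype, with no overlap, a share that does not depend on the total of a library. The H2B class held 3.85% to 5.76% on anti-PD-1 and 5.97% to 6.63% on isotype, again with no overlap. Of the H2B sum, Hist1h2bc alone gave 39.4 to 71.8 of 136 to 175 TPM on isotype. On anti-PD-1 it gave 8.92 to 23.5 of 32.7 to 116 TPM. Each share includes a gene picked out above, Hist1h1e in H1 and Hist1h2bc in H2B, so neither is shown to be a shift of the class. Both shares are descriptions and were not tested. In the CZA arm the H1 share was 4.98% to 6.20% on anti-PD-1 and 4.66% to 6.68% on isotype, which overlapped.

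Mki67 itself was not called between these groups. It had 11.2, 10.9, 14.1, 4.28 and 17.6 TPM in CZA+DAV132 mice on anti-PD-1, against 10.2, 15.5, 13.6, 12.1 and 12.8 TPM in CZA+DAV132 mice on isotype, a difference of -0.23 ± 0.26 (log2, SE, limma adjusted p = 0.55). CD8-19, the library richest in repeats, was the lowest of all 20. With every gene measured relative to Mki67, 3 of 54 members were called, all lower, where 16.2% of all genes were called, 4.77% higher and 11.4% lower: Hist1h2bc at -1.25 (limma adjusted p = 0.0116), Hist3h2a at -0.94 (adjusted p = 0.0279) and Hist2h2aa2 at -0.80 (adjusted p = 0.0338). The count was 0 without CD8-16 and CD8-19 together, and 1 without CD8-16, CD8-11, CD8-13 or CD8-15 alone. Relative to Mki67 the other comparisons of the sorted cells gave 0 calls among the members. All genes were called at 0.0232% for CZA+DAV132 against CZA under anti-PD-1, where 1 member was called without CD8-8, at 0% for the same under isotype and at 0.0232% for anti-PD-1 in the CZA arm, with 4, 2 and 0 members at an unadjusted p under 0.05.

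Genes of the cell cycle and of histone supply fell in this comparison too. Of 22 S phase genes 11 fell, such as Gins2, a subunit of the replicative helicase, at -1.55 (limma adjusted p = 0.005) and Tyms, thymidylate synthase, at -1.69 (adjusted p = 0.00593), and 0 rose. Of 19 genes of G2 and mitosis 6 fell, among them Birc5 at -1.24 (adjusted p = 0.0104) and Ccnb2, a mitotic cyclin, at -1.17 (adjusted p = 0.0116). Of 18 tested genes of histone mRNA transcription and processing 8 fell, such as Ncbp2, a subunit of the nuclear cap-binding complex, at -1.18 (adjusted p = 0.00886) and Ccne2, a cyclin of the G1 to S step, at -1.19 (adjusted p = 0.0117). Of 10 tested histone variants listed as replication-independent 6 fell, led by H2afz at -1.54 (adjusted p = 0.00686) and H3f3a at -1.46 (adjusted p = 0.00715). Of 12 histone chaperones 5 fell, led by Asf1b at -1.31 (adjusted p = 0.00773) and Rbbp7 at -1.05 (adjusted p = 0.0135). In all 36 of 81 tested genes of these lists fell, with a median of -0.69 against -0.34 over all genes, where 19.4% of all genes fell. Without CD8-16 and CD8-19, 8 fell and 1 rose, where 5.07% of all genes fell and 4.14% rose. With median-ratio scaling 28 fell and 5 rose, where 14.1% of all genes fell and 11.4% rose. With repeat entries left out of the total, 16 fell and 4 rose, where 9.33% of all genes fell and 10.6% rose.

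Markers of other cells moved with the same comparison. The macrophage and monocyte genes summed to 335 to 1265 TPM in CZA+DAV132 mice on anti-PD-1, against 1676 to 3056 TPM in CZA+DAV132 mice on isotype, and 3 of 8 were called lower, where 19.4% of all genes were. The T cell genes summed to 3617 to 12207 TPM on anti-PD-1 and 11088 to 14043 TPM on isotype, and 2 of 9 were called lower. The low sums were those of the repeat-rich CD8-16 and CD8-19, with 3617 and 3772 TPM. The other anti-PD-1 libraries of this arm had 10612 to 12207 TPM. The endothelial genes summed to 431 to 2467 TPM on anti-PD-1 and 216 to 381 TPM on isotype, without overlap, and Pecam1, the 1 tested gene of 3, was higher by 1.74 (limma adjusted p = 0.0406), where 4.12% of all genes were called higher. In the CZA arm the endothelial sum was 221 to 815 TPM on anti-PD-1 and 186 to 2242 TPM on isotype. It was highest in CD8-16 and CD8-1, with repeat shares of 29.1% and 25.7%, but was 431 TPM in CD8-19, with 72.1%. Of the 4 tested dendritic cell genes Siglech was called higher at 0.82 (limma adjusted p = 0.0364), and of the 3 tested NK cell genes Klrb1c was called lower at -1.64 (adjusted p = 0.00855). No tested gene of the CD4 T cell, B cell, neutrophil, fibroblast or erythroid lists was called. Their part in the histone differences was not tested.

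**Figure D5:**
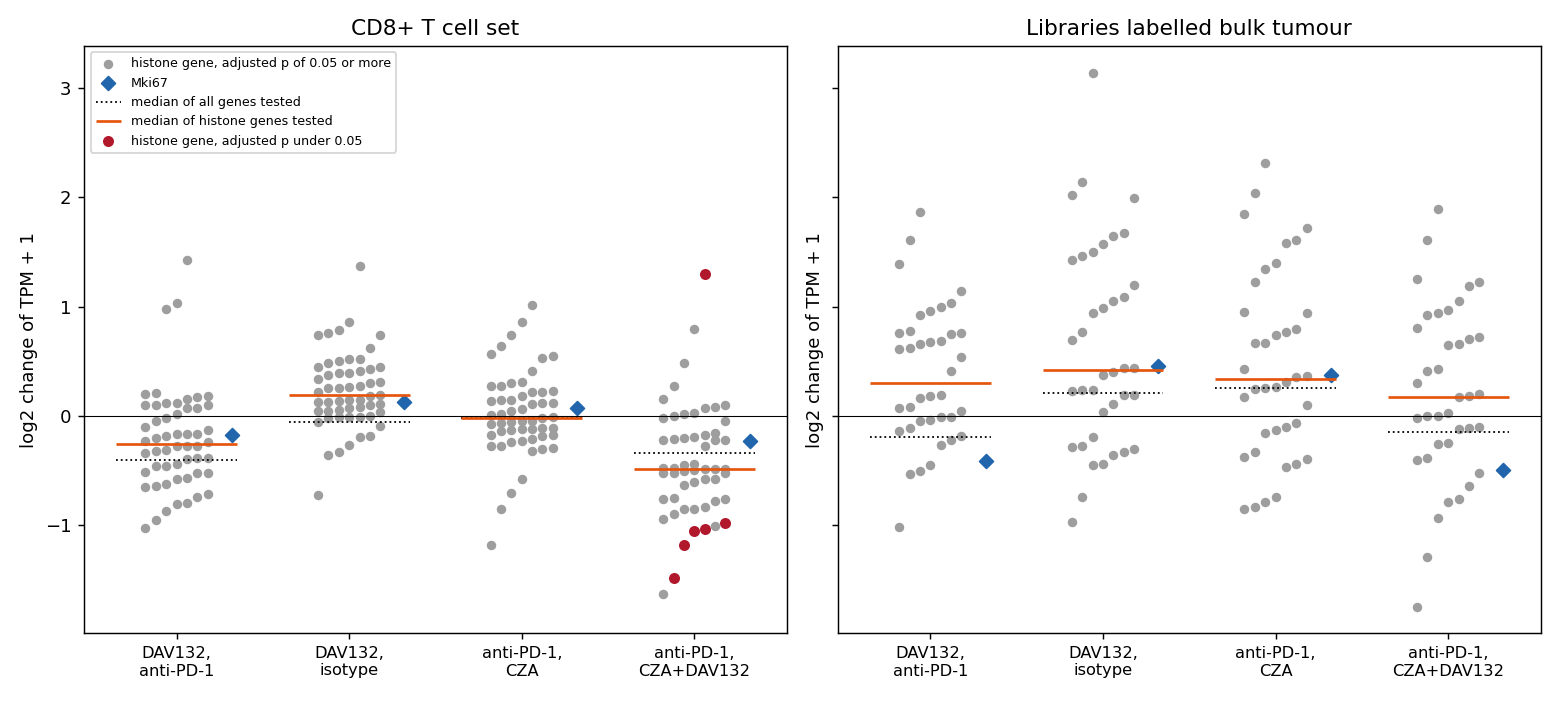
Difference of each tested histone gene in log2(TPM + 1) for the 4 comparisons (DAV132 stands for CZA+DAV132 against CZA, anti-PD-1 for anti-PD-1 against isotype), with red points for called genes, grey for the others, diamonds for Mki67, and solid and dotted lines for the medians of the histone genes and of all genes tested. Called genes appear only for anti-PD-1 in the CZA+DAV132 arm of the sorted set, 5 below 0 and 1 above.

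The other comparisons in the sorted cells gave 0 calls among the members. For CZA+DAV132 against CZA under anti-PD-1, limma called 0 of 54 members and 0.0386% of all genes, with 1 member higher and 5 lower at an unadjusted p under 0.05. The smallest p belonged to Hist3h2a at -0.96 (limma adjusted p = 0.0683), Hist4h4 at 1.43 (adjusted p = 0.0685) and Hist1h2bc at -0.87 (adjusted p = 0.0703), the same genes as above with CZA+DAV132 mice on anti-PD-1 again on one side. The count was 3 without CD8-18, 4 without CD8-20 and 1 without CD8-8. Without CD8-16 and CD8-19 it was 0, and 8 members were higher and 2 lower at an unadjusted p under 0.05. The median of the members was then 0.24, against -0.05 over all genes, where with all libraries the medians were -0.26 and -0.40. Hist3h2a was then at -0.49 (limma adjusted p = 0.452), Hist4h4 at 0.97 (adjusted p = 0.472) and Hist1h2bc at -0.56 (adjusted p = 0.453). Hist4h4 averaged 8.93 ± 4.98 TPM in CZA+DAV132 mice and 2.49 ± 1.27 TPM in CZA mice on anti-PD-1 (SD, n = 5 each). Mki67 differed by -0.17 (adjusted p = 0.643). For 0 members did the groups not overlap, against 0.386% of all genes with CZA+DAV132 higher and 2.58% with it lower.

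For CZA+DAV132 against CZA under isotype 0 of 54 members and 0% of all genes were called, with 2 members at an unadjusted p under 0.05. Of the 54 members 41 lay above 0, among them 13 of 13 H2B genes, with a median of 0.19 against -0.06 over all genes. Hist1h2ag was the member whose groups did not overlap, with 45.5 to 72.9 TPM in CZA+DAV132 mice against 26.6 to 42.8 TPM in CZA mice. It differed by 0.79 (limma adjusted p = 1.00), Hist3h2ba by 0.76, Hist1h2be by 0.41 and Mki67 by 0.13. Hist1h2ag alone is 1.85% of the members, against 0.309% of all genes, and 0.24% of all genes had CZA+DAV132 lower without overlap.

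For anti-PD-1 against isotype in the CZA arm 0 of 54 members and 0.0155% of all genes were called, and 0 members had an unadjusted p under 0.05. The median of the members was -0.02, with 26 above 0 and 28 below. Hist3h2ba at 0.53, Hist4h4 at -0.86 and Hist1h4k at 1.02 had the smallest p (limma adjusted p = 0.997), and Mki67 differed by 0.07. For 0 members did the anti-PD-1 and isotype libraries not overlap, against 1.15% of all genes with anti-PD-1 higher and 0.44% with it lower. The difference between the arms in the response to anti-PD-1 was tested as an interaction, which called 0 members and 0% of all genes, with 7 members at an unadjusted p under 0.05. Hist4h4 at 2.15, Hist1h2bc at -1.38 and Hist3h2ba at -1.16 led it (limma adjusted p = 0.29), so the 6 calls of the CZA+DAV132 arm are not shown to differ from the CZA arm. Of the 81 genes of the other lists 0 were called in these 4 comparisons, with 31, 2, 2 and 19 at an unadjusted p under 0.05 in the order in which the comparisons are given.

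In the bulk tumour libraries limma called 0 of 38 members in every comparison. CZA+DAV132 against CZA under anti-PD-1 had 0% of all genes called and 4 members at an unadjusted p under 0.05, all higher. The median of the members was 0.30, against -0.19 over all genes, with 25 above 0 and 13 below. Hist1h1e had 103, 60.6, 18.6, 50.4 and 82.1 TPM in CZA+DAV132 mice, against 3.38, 16.1, 5.55, 55.3 and 29.4 TPM in CZA mice on anti-PD-1. Most CZA+DAV132 libraries were higher, but the groups overlapped, and the difference of 1.86 was not called (limma adjusted p = 0.554). Hist1h2aj, an annotated pseudogene, had 3.08, 2.64, 1.52, 0 and 6.12 TPM in CZA+DAV132 mice on anti-PD-1 and was listed at 0 in all 5 libraries of CZA mice on anti-PD-1 (difference 1.61, limma adjusted p = 0.304). Outside CZA+DAV132 mice on anti-PD-1, Hist1h2aj reached 1 TPM only in T-985. It thus passed the filter only through the group where it is high, and its p-values give no support. Without T-026 limma called 0 members, with 7 higher at an unadjusted p under 0.05. The median of the 38 was then 0.41, against -0.08 over all genes, and Hist1h1e differed by 2.24 (adjusted p = 0.528) and Hist1h2aj by 1.68 (adjusted p = 0.384). Without T-029, the only CZA+DAV132 library on anti-PD-1 with Hist1h2aj at 0, 1 member was called. It was Hist1h2aj, so this call gives no support either. For 0 members did these groups not overlap, against 0.233% of all genes with CZA+DAV132 higher and 1.91% with it lower.

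Hist1h2ao, the main H2A gene there, had 305, 315, 127, 480 and 409 TPM in CZA+DAV132 mice on anti-PD-1, against 118, 215, 150, 250 and 182 TPM in CZA mice on anti-PD-1. All but the repeat-rich T-026 were above all CZA libraries, with a difference of 0.75 (limma adjusted p = 0.602), or 1.06 without T-026 (adjusted p = 0.384). Mki67 differed by -0.42 (adjusted p = 0.871). Relative to Mki67, 34 of 38 members lay above 0 with a median of 0.72, against 0.22 over all genes, and 12 members, all higher, had an unadjusted p under 0.05. Hist1h2aj, whose p-values give no support, was among the 12. Limma called 0 members and 0% of all genes, and 4 members, all higher, with array weights. Without T-026 the median relative to Mki67 was 0.62, against 0.13 over all genes, and limma called 0 members.

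Anti-PD-1 against isotype in the CZA+DAV132 arm had 0.24% of all genes called in the bulk libraries, and 3 members higher and 1 lower at an unadjusted p under 0.05. Hist4h4, the H4 gene called in the sorted cells, had 15.1, 26.8, 33.1, 13.8 and 9.90 TPM on anti-PD-1 and 3.48, 9.21, 9.05 and 9.51 TPM on isotype. The groups did not overlap, though the lowest anti-PD-1 value was close to the highest isotype value, and the gene was not called. Hist1h4d, an H4 gene of the Hist1 cluster, had 4.60, 12.2, 6.02, 11.8 and 13.2 TPM on anti-PD-1 and 18.4, 15.2, 25.2 and 14.4 TPM on isotype, with all anti-PD-1 libraries lower, and it was not called either. Each is 2.63% of the 38 members, where 2.06% of all genes did not overlap with anti-PD-1 higher and 4.43% with anti-PD-1 lower. The smallest p belonged to Hist1h2aj at 1.61 (limma adjusted p = 0.121), Hist1h2bp at -1.75 (adjusted p = 0.204) and Hist2h2ac at 1.25 (adjusted p = 0.349). Hist1h2aj and Hist1h2bp each passed the filter only through the group where they are high, so these p-values give no support. Mki67 differed by -0.50 (adjusted p = 0.728), and relative to it 31 of 38 members lay above 0 with a median of 0.67, against 0.35 over all genes. Of these, 10 higher and 1 lower had an unadjusted p under 0.05, and limma called 0 members and 0.03% of all genes. Without T-029 the count was 1 on both scales. The member called was Hist1h2aj, so these calls give no support. Without T-026 the count was 0 on both scales, with medians of 0.29 for the members and -0.03 for all genes, and of 0.58 and 0.26 relative to Mki67.

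CZA+DAV132 against CZA under isotype had 0.113% of all genes called, and 6 members, all higher, at an unadjusted p under 0.05. Hist1h4d again led, with 18.4, 15.2, 25.2 and 14.4 TPM in CZA+DAV132 mice, against 0, 14.5, 0, 0 and 1.90 TPM in CZA mice on isotype. T-985, with 14.5 TPM, was the CZA library within reach of the CZA+DAV132 libraries, and the difference of 3.14 had a limma adjusted p of 0.0743. Hist1h2bp, an H2B gene, was listed at 0 in all CZA libraries on isotype and ranged from 0.922 to 10.4 TPM in CZA+DAV132 mice. Outside CZA+DAV132 mice on isotype, Hist1h2bp reached 1 TPM only in T-984 and T-029, so it passed the filter only through that group. It was the member whose groups did not overlap, 2.63% of 38, against 1.85% of all genes with CZA+DAV132 higher and 0.39% with it lower. Its difference of 2.14 was not called (limma adjusted p = 0.143), nor was that of Hist3h2a, 1.57 (adjusted p = 0.284), and Mki67 differed by 0.45 (adjusted p = 0.694). Without T-985, whose repeat entries took 13.9% of its TPM, 1 member was called, and 1 relative to Mki67, where 0 members and 0% of all genes were called with all libraries.

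Anti-PD-1 against isotype in the CZA arm had 0.285% of all genes called, and 7 members, all higher, at an unadjusted p under 0.05. Hist1h4d differed by 2.32 (limma adjusted p = 0.12), Hist3h2a by 1.72 (adjusted p = 0.148), Hist1h3a by 1.61 (adjusted p = 0.217) and Mki67 by 0.37 (adjusted p = 0.673). Hist3h2a had 2.20, 1.16, 12.6, 4.78 and 3.48 TPM on anti-PD-1 against 0.74, 0.95, 0.84, 0 and 0 TPM on isotype, with no overlap. It was 1 of 38 members (2.63%), against 2.09% of all genes with anti-PD-1 higher and 0.308% with it lower. The same gene was lower on anti-PD-1 in the CZA+DAV132 arm of the sorted cells. The interaction had 0.045% of all genes called and 5 members at an unadjusted p under 0.05, led by Hist1h4d at -3.25 (adjusted p = 0.291). Relative to Mki67, anti-PD-1 in the CZA arm had 0 members and 0.0225% of all genes called, with 3 members at an unadjusted p under 0.05. Without T-985 the count was 1 in each of these. Of the other lists, H2afz was called once, at -1.28 on anti-PD-1 in the CZA+DAV132 arm (limma adjusted p = 0.0489), and 0 of 81 were called in the other comparisons.

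Across libraries, the leading member of each class was set against Mki67 in log2(TPM + 1), 10 relations in all with p-values adjusted over them. In the sorted cells (n = 20) Hist1h2ap had r = 0.76 (permutation test, two-sided, adjusted p = 0.0112) and rho = 0.65 (adjusted permutation p = 0.0261). Hist1h4d had r = 0.65 (adjusted permutation p = 0.0148) and rho = 0.43 (adjusted permutation p = 0.144), and Hist1h1e had r = 0.61 (adjusted permutation p = 0.0154) and rho = 0.49 (adjusted permutation p = 0.0986), so these relations passed by r and not by rho. Hist2h3b passed by rho, at 0.58 (adjusted permutation p = 0.0427), and not by r, at 0.55 (adjusted permutation p = 0.0792). Hist1h2bc passed by neither, with r = 0.43 (adjusted permutation p = 0.121) and rho = 0.10 (adjusted permutation p = 0.751). Without CD8-19 and CD8-20, the libraries farthest from the median of Mki67, r was 0.43 for Hist1h2ap, 0.32 for Hist1h4d and 0.22 for Hist1h1e, so the relations rest largely on them. Within groups, after taking out group means, r was 0.76, 0.65 and 0.72 for the same genes. This within-group r was 0.02, 0.04 and 0.23 with median-ratio scaling, and 0.45, 0.23 and 0.23 without CD8-16 and CD8-19. Over all tested members 52 of 54 correlated positively, where 91.3% of all genes did. Their median r was 0.44, but the median over all genes was 0.48. Hist1h1b was highest with 0.80 and Hist4h4 lowest with -0.41. Without CD8-16 and CD8-19, 42 of 54 members and 60.0% of all genes were positive, with medians of 0.25 and 0.08. With median-ratio scaling 33 of 54 members and 48.8% of all genes were positive, with medians of 0.09 and -0.01. So the order of the 2 medians depended on the setting.

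The bulk tumour libraries (n = 19) did not show such relations. The r with Mki67 was -0.18 for Hist1h1e, 0.12 for Hist1h2ao, 0.28 for Hist1h2bc, 0.20 for Hist1h3a and -0.24 for Hist4h4, with adjusted permutation p-values of 0.408 or more, and of 0.165 or more for rho. Over all tested members 25 of 38 were positive with a median r of 0.09, against 0.17 over all genes, of which 73.1% were positive.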

How the data were processed

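Gene expression was deposited by the authors as TPM, in a table for the sorted CD8+ T cells and a table for the bulk tumours. Per the submitters' processing notes, kallisto 0.45 and GRCm38 were used, and per the labels' protocols 300 ng of total RNA were depleted of ribosomal RNA before stranded libraries were made. No source used here names the annotation or how transcripts were summed to genes. The 61 members matched GENCODE M21 by symbol, which gave identifiers, coordinates and transcript sequences.

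Each table was analysed alone with limma 3.58.1 (R 4.3.3): log2(TPM + 1), a mean per group over all 4 groups, empirical Bayes with a trend, genes reaching 1 TPM in 4 or more libraries, and Benjamini-Hochberg adjustment over all genes. A further fit used each gene minus Mki67. The scripts were tested on simulated data. Correlations used 100000 permutations (scipy 1.17.1). Repeat entries were 19 rows found by sequence (12 satellite, 7 simple repeat).

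The members and lists were chosen with earlier results of these data known. Named were the 3 highest members of each class in each set, every called member or, with fewer than 3 calls, the 3 of smallest p, the members of Hist3 and Hist4, Mki67, and the 2 of smallest p from each other list. Single members outside this rule, such as Hist1h1e in the CZA+DAV132 arm, were picked after their values were seen. Alternatives changed the pseudocount, filter, scaling, weights, groups fitted and libraries. The counts of list genes under other scalings and without the repeat-rich libraries were added after seeing the data.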

Additional observations from a re-analysis of the deposited data

Results flagged for a closer look

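For the called members, Hist1h1e, Mki67, the class sums and other summary values, each library was compared with the others of its group, and 12 of 128 groups had a library standing apart by Dixon's criterion, which chance gives in about 5% of groups, or 1 in 20. No explanation was tested. In the sorted cells, 1 library of CZA mice on anti-PD-1, CD8-10, was highest for Hist1h3a with 11.2 TPM, the nearest other being 7.80 TPM, and for Hist4h4 with 4.69 TPM, the nearest other being 2.43 TPM. Of the CZA mice on isotype, CD8-4 had 18.6 TPM of Hist4h4 beside 5.60 TPM, and CD8-2 had 42.8 TPM of Hist1h2ag beside 31.2 TPM.

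In the bulk tumour libraries Hist1h3a stood apart in 3 groups, with 3.93 TPM in T-023 of CZA+DAV132 mice on anti-PD-1, 3.64 TPM in T-028 of CZA+DAV132 mice on isotype, and 1.71 TPM in T-991 of CZA mice on isotype, where it was listed at 0 in the others. Hist2h2aa2 had 21.1 TPM in T-030 of CZA+DAV132 mice on anti-PD-1, beside 4.27 TPM, and 10.0 TPM in T-985 of CZA mice on isotype, beside 1.27 TPM. Hist4h4 was low in T-022 of CZA+DAV132 mice on isotype, with 3.48 TPM beside 9.05 TPM. Hist1h2ag had 39.5 TPM in T-982 of CZA mice on anti-PD-1, beside 4.06 TPM. Hist1h1e had 35.8 TPM in T-987 of CZA mice on isotype, beside 5.76 TPM.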

How the results depend on the processing

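In the sorted cells the 6 calls for anti-PD-1 in the CZA+DAV132 arm became 3 without a filter and 2 without the repeat-rich libraries, and 2 to 11 when 1 library was left out. Relative to Mki67 the 3 calls became 6 with a mean of at least 5 TPM, 9 with array weights, 0 without the repeat-rich libraries, and 1 to 4 with 1 library left out. For CZA+DAV132 against CZA under anti-PD-1 the 0 calls became 3 with the 5 TPM filter and 1 with array weights, and leaving out 1 library gave 0 to 4, or 0 to 1 relative to Mki67. In the bulk libraries array weights gave 1 call for CZA+DAV132 against CZA under anti-PD-1 and 2 for anti-PD-1 in the CZA+DAV132 arm, and 4 for each relative to Mki67, where fitting the compared groups alone gave 1 for anti-PD-1. Leaving out 1 bulk library gave 0 to 1 calls, and the calls without T-029 were of Hist1h2aj, whose p-values give no support. The r with Mki67 was lower with median-ratio scaling, at 0.48 for Hist1h1e, 0.34 for Hist1h2ap and 0.28 for Hist1h4d, and without the repeat-rich libraries, at 0.35, 0.52 and 0.37, and passed in neither. The cause was not tested. No value changed direction past the threshold. Of the values of single genes, medians and list counts under the alternatives, 1586 kept their direction and their side of the threshold or moved little, 51 no longer passed, 31 newly passed and 11 moved. Of the counts of members called and relations with Mki67, 346 kept theirs or moved little, 33 moved and 6 no longer passed. No paired analysis was possible because the groups share no replicate numbers. Without depth, low members and near-identical copies are uncertain.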
